A study of Mus musculus with 2 samples.

Results

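The listed m6A positions that fall in no annotated gene on their own strand were collected from the cerebellum and the cerebrum of a newborn hybrid mouse. A position counted as outside genes when no GENCODE M21 gene interval covered it on either strand. It counted as antisense when the only gene interval over it lay on the opposite strand. On chromosomes 1 to 19 these rules gave 6424 sites, 4971 outside all genes and 1453 antisense to a gene, of the 212798 sites listed in either tissue, or 3.02% (95% Wilson interval 2.95 to 3.09). The cerebellum list held 2214 of them among its 76905 sites and the cerebrum list 5325 among its 182625 sites, and 1115 positions were in both.

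Both lists came from GLORI, in which glyoxal and nitrite deaminate unmethylated adenosines so that they are read as G, while N6-methyladenosine is still read as A. The methods describe both RNA samples as taken from a single female F1r hybrid at P0, offspring of a C57 mother and a PWK father, and poly(A)+ RNA from each tissue went into 1 library. The 2 libraries are thus tissues of 1 animal, and the spread between animals was not measured. The deposited lists hold positions without a methylation rate or a read count, so the depth behind each site is unknown and a position missing from a list can be unmethylated, unexpressed or thinly covered. The listed sites are GLORI calls, and whether m6A-seq peaks cover them was not checked. As a check of the tissue labels, 8 of 12 hindbrain genes had a listed site in the cerebellum against 4 in the cerebrum, and 12 of 12 forebrain genes had one in the cerebrum against 5 in the cerebellum. With 1 library per tissue no difference between tissues could be tested, and every interval below is a 95% Wilson interval that covers counting error over sites.

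In messenger RNA, m6A is written by the METTL3-METTL14 complex at DRACH motifs, 5-base contexts whose central A is the methylated base, with C always next to it (D stands for any base but C, R for a purine and H for any base but G). It is concentrated near stop codons and in 3′ untranslated regions. A transcript is cut at its poly(A) site, but many brain genes use distal poly(A) sites that lengthen the 3′ untranslated region well past the shorter form, and polymerase also runs past the site before it stops. Antisense transcripts arise from convergent neighbours whose tails overlap, from divergent promoters and from separate long noncoding RNAs.

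The positions that show these arrangements are given first, each as 29 nt of the RefSeq GRCm38 genome centred on the listed adenosine, 5′ to 3′ on the site strand, with the DRACH motif in capitals. The first 6 lie downstream of the gene ends with the most sites, the next 4 opposite the genes with the most antisense sites, and the last 4 in the largest groups of sites far from any gene end. All were listed in both tissues except the 2310047K21Rik position, which was in the cerebrum list.
Mir673, chr12:109573078-109573106, plus strand: ttcccaagaaaaTAACTcatctccagctt
Hs6st3, chr14:119869988-119870016, plus strand: tttcgcccaattGAACTttagtctgttta
Xkr4, chr1:3205549-3205577, minus strand: cttcacccagctGAACTctttcttgcaaa
Syn3, chr10:86054959-86054987, minus strand: tggccctcatggTGACCttgatgtcaata
Nrp1, chr8:128503438-128503466, plus strand: agaaaaagaattAGACTattttgtttgca
Ylpm1, chr12:85071247-85071275, plus strand: acagatagagatGAACTttcttcctcaaa
opposite D030068K23Rik, chr8:109251234-109251262, minus strand: gaagcacaaagcTGACTttaatcactttt
opposite Ube3a, chr7:59260778-59260806, minus strand: ccctactgctaaGGACAatatccacacta
opposite Fbxo7, chr10:86051722-86051750, minus strand: cacaatgaccaaGGACTtccaaacacgac
opposite Gm27008, chr3:107038237-107038265, plus strand: tttgtgaccaacAAACTtacattaagcgt
RefSeq exon of Rnf130, chr11:50119115-50119143, plus strand: tgaaccttctttGGACAtgtatgatgaga
RefSeq exon of Robo2, chr16:75092718-75092746, minus strand: tttttttctgctGGACAcacattcctgtt
RefSeq exon of 2310047K21Rik, chr2:104817205-104817233, plus strand: ggttctttgaagGAACTcaaacactcgat
near Nkain2, chr10:32891426-32891454, plus strand: ttcttaatcactGAACTatgacctttcaa

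About 1 site in 3 sat in the motif. The DRACH share was 32.6% of the 4971 sites outside genes (31.3 to 33.9) and 35.6% of the 1453 antisense sites (33.2 to 38.1), and over single autosomes it ran from 18.5 to 52.7% and from 16.2 to 57.7%. Adenosines within 50 nt of these sites on the same strand that were not listed were in DRACH in 6.42% and 6.98% of cases, so the listed sites held the motif 5.08-fold and 5.10-fold more often. Within genes the share was 63.3% for sites in 3′ untranslated regions, 59.0% in coding sequence and 12.3% in introns. The sites outside or antisense to genes stood between intronic sites and those of coding sequence or 3′ untranslated regions. The share also rose with detection in both tissues. It was 52.1% for the 781 sites outside genes listed in both tissues, 27.2% for those of the cerebellum alone and 29.4% for those of the cerebrum alone. For antisense sites these shares were 39.8%, 31.2% and 35.0%, with overlapping intervals.

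The most frequent 5-base contexts were DRACH contexts. Among the sites outside genes GAACT came first with 226 sites, then AGACT with 225, GGACT with 190 and TGACT with 173. GGACT made up 3.82% of these sites and 0.176% of the unlisted adenosines nearby, a 21.7-fold difference, which exceeded the 17.5-fold difference of GAACT. Among antisense sites AGACT led with 70 sites and GGACT was 19.3-fold more frequent than among unlisted adenosines. CCATC was the most frequent context without the motif, with 91 sites outside genes and a 2.71-fold difference.

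Distance from the upstream gene end separated motif sites from the others. The density of sites outside genes was 24.9 per Mb of same-strand sequence in the first kb past a gene end, 13.2 per Mb from 1 to 2 kb, 6.78 from 2 to 5 kb, 3.13 from 5 to 10 kb and 1.15 beyond 100 kb, a 21.6-fold decline from the first bin to the last. The DRACH share declined over the same bins from 59.4% (56.0 to 62.7, 830 sites) through 54.3%, 44.6% and 30.2% to 17.1% (15.1 to 19.2, 1312 sites). The first-kb value was within 5 percentage points of the 63.3% of annotated 3′ untranslated regions and the last value within 5 points of the 12.3% of introns. Counted per 10000 DRACH adenosines available, DRACH sites went from 7.01 in the first kb to 0.0935 beyond 100 kb, a 74.96-fold decline. Sites without the motif went from 0.386 to 0.0340 per 10000 other adenosines, an 11.4-fold decline. Antisense sites followed a similar course, with 15.8 per Mb and 56.7% DRACH in the first kb and 0.608 per Mb and 21.4% beyond 100 kb, although the share was lowest, 16.98%, from 20 to 50 kb and 25.3% from 50 to 100 kb. Their DRACH share from 5 to 10 kb, 44.4% (37.1 to 51.9), was above that of sites outside genes in that bin, 30.2% (25.8 to 34.9).

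**Figure D1:**
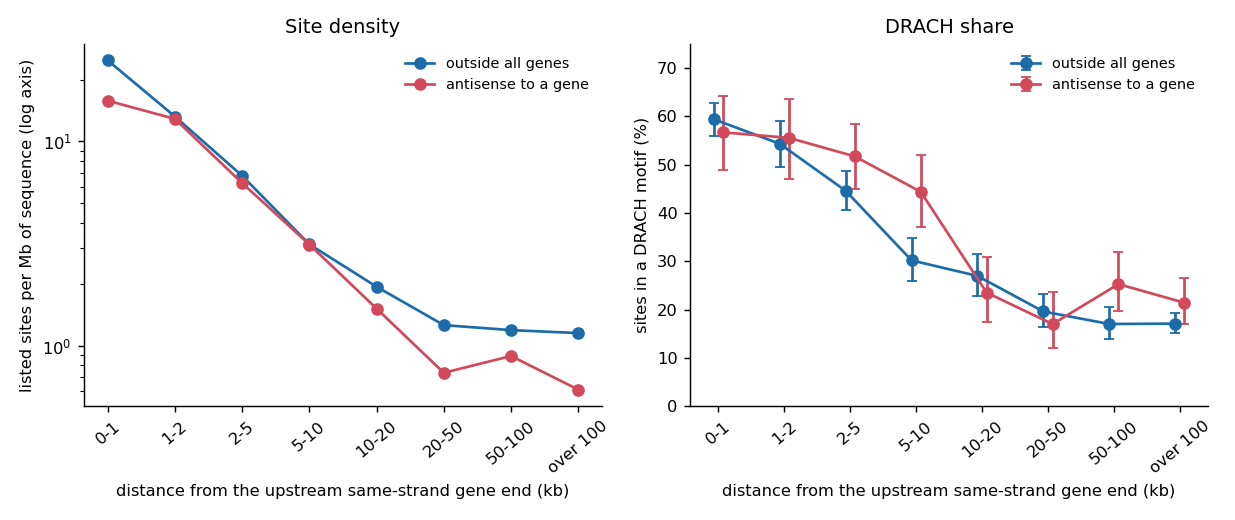
Listed sites by distance in kb from the nearest upstream gene end on the same strand, for sites outside all genes (blue) and antisense sites (red). The left panel gives sites per Mb of such sequence on a log axis and the right panel the percentage in a DRACH motif with 95% Wilson intervals. For sites outside genes density declines from 24.9 to 1.15 per Mb and the motif share from 59.4 to 17.1%.

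Put as a share, 2220 of the 4971 sites outside genes, 44.7% (43.3 to 46.0), lay within 10 kb downstream of a same-strand gene end. That stretch made up 11.2% of the sequence outside genes, a 4.004-fold difference, and 11.3% of its DRACH adenosines. Of the DRACH sites 67.8% (65.4 to 70.0) were within this distance, against 33.5% (31.9 to 35.1) of the others. The median distance was 2822 nt for DRACH sites and 36562.5 nt for the rest. The share within 10 kb was 45.2% for cerebellum sites outside genes and 44.8% for cerebrum ones, so the tissues differed by less than either interval. Of the antisense sites 666, or 45.8% (43.3 to 48.4), were within 10 kb, in 9.68% of the sequence antisense to genes. Within 10 kb the DRACH share was 49.4% outside genes, 7.49-fold above unlisted adenosines, and 51.8% for antisense sites. Beyond 10 kb it was 18.97%, 3.02-fold above unlisted adenosines, and 21.9%.

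**Figure D2:**
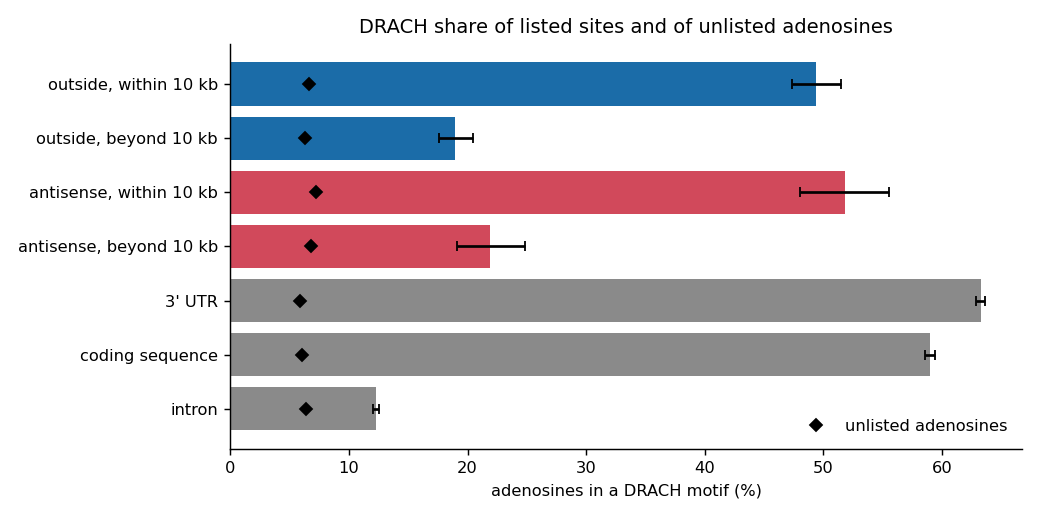
Percentage of listed sites in a DRACH motif (bars, with 95% Wilson intervals) and of unlisted adenosines within 50 nt of them (black diamonds). Sites within 10 kb of a gene end reach 49.4% (outside) and 51.8% (antisense), between introns at 12.3% and 3′ untranslated regions at 63.3%, while unlisted adenosines lie between 5.84 and 7.21%.

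The sites within 10 kb were spread over 846 gene ends, of which 465 had 1 site and 129 had 5 or more. The latter held 1105 of the 2220 sites. Ends of protein-coding genes numbered 631 and carried 1727 sites, and 92.7% of those genes also had a listed site inside the gene. No share over all protein-coding genes was set beside this value, so it does not show an excess. The next values cover ends of all gene types. In the same library the gene itself had a site at 239 of the 338 ends with cerebellum sites, 70.7%. The same held at 592 of the 758 ends with cerebrum sites, 78.1%. Ends with sites in the cerebellum alone numbered 88, and 63 of these genes, 71.6%, had a site in the cerebrum. Of 508 ends with cerebrum sites alone, 334 genes, 65.7%, had a site in the cerebellum. The match was thus not confined to the same library. No share over all genes was set beside these values either. Ends with sites in both tissues numbered 250, or 29.6%.

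The end with the most sites was that of Mir673, a microRNA gene in the imprinted Dlk1-Dio3 region. It was followed by 47 sites, 39 in the cerebellum, 34 in the cerebrum and 26 in both, and 44 of them were DRACH. The Mir673 end lies 354 nt past the end of Meg3, a long noncoding RNA on the same strand, so these sites ran from 664 to 8062 nt past the annotated Meg3 end. RefSeq has no gene on that strand over them and places all 47 opposite a longer Rtl1.

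Next came Hs6st3, a heparan sulfate 6-O-sulfotransferase, with 35 sites from 111 to 6218 nt past its end. Of these, 24 were listed in the cerebellum, 29 in the cerebrum and 18 in both, 30 were DRACH, and none was in a RefSeq exon. The position printed above lies 187 nt past the end.

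Xkr4, a member of the Xk-related scramblase family, and Syn3, which encodes the synaptic vesicle protein synapsin III, each had 33 sites. Those of Xkr4 reached 6153 nt and those of Syn3 3202 nt, 22 and 25 were DRACH, and all lay in RefSeq exons of the same gene. Nrp1, a receptor of class 3 semaphorins and VEGF, had 23 sites within 2042 nt, 16 of them DRACH. Ylpm1 had 22 sites that began 746 nt past the end, 19 of them DRACH. For both genes every site was in a RefSeq exon of that gene.

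Of the 15 ends with the most sites, Mpped2 was the one with no position listed in both tissues. Mpped2, a metallophosphoesterase gene, had 16 sites in the cerebrum and 2 in the cerebellum. Over all sites outside genes 46.5% of cerebellum sites were also in the cerebrum list, so a lack of shared sites among 2 says little. Inside the gene the cerebrum list had 42 sites and the cerebellum list 17. Tfap2d, an AP-2 transcription factor gene outside the naming rule and picked for its values, had 10 cerebellum sites and 1 cerebrum site past its end, and 7 and 2 inside the gene. In both cases the tissue with more sites past the end also had more sites within the gene. The cerebrum list was longer throughout, with 182625 sites against 76905, so the Mpped2 counts inside the gene show no excess particular to it. These 2 genes do not stand for the other ends.

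The other leading ends carried 12 to 17 sites each. Jakmip2 and Shc3, a neuronal adaptor of receptor tyrosine kinases, had 17, and the Shc3 sites lay at a median of 6405 nt. Arl10, an ADP-ribosylation factor-like GTPase, had 16 past its end and 1 inside the gene. Garem1, an adaptor in growth factor signalling, and Fer, a cytoplasmic tyrosine kinase, had 14 each. The lincRNA gene Gm39469 had 13 and no site of its own, Stxbp5l, which encodes the SNARE regulator tomosyn-2, had 13, and the processed pseudogene AC154486.3 had 12. Of these 8 ends, 6 had all their sites in RefSeq exons of the same gene, Garem1 had none there, and 9 of the 12 sites past AC154486.3 were in a RefSeq exon of Gm16386. The DRACH share was lowest at Fer, with 10 of 14 sites, and highest at Shc3, with 15 of 17.

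**Figure D3:**
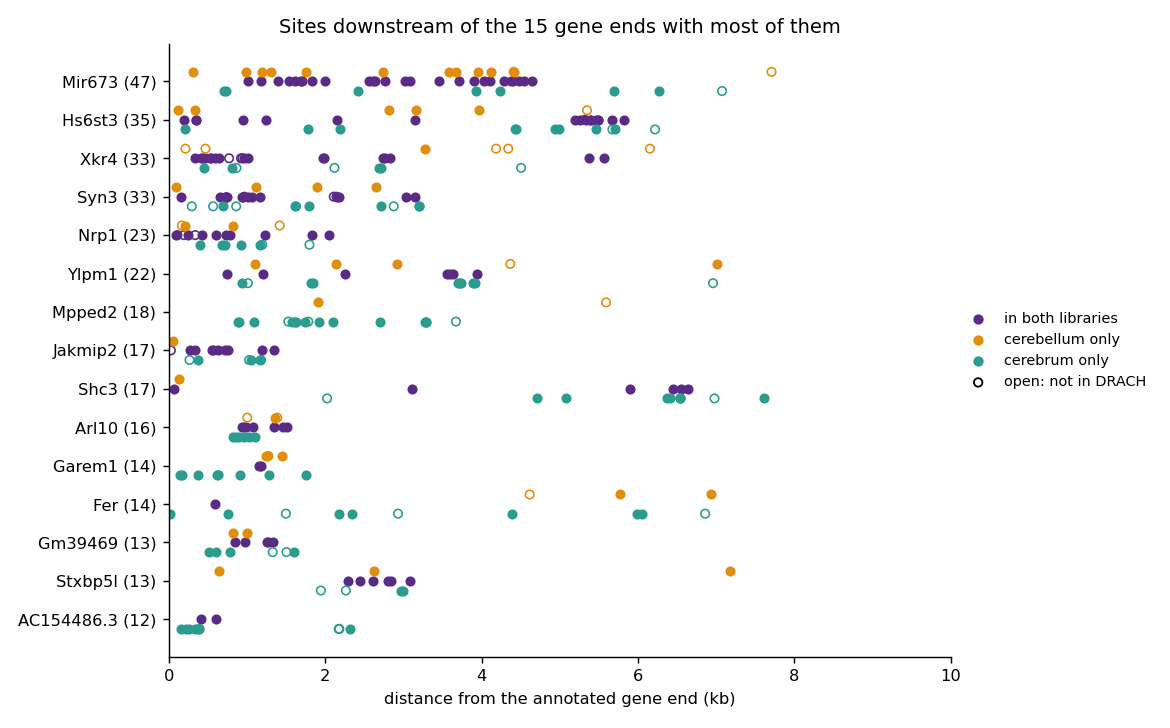
Sites within 10 kb downstream of the 15 gene ends with the most of them (number of sites in brackets), by distance in kb from the annotated end. Purple points are in both libraries, orange in the cerebellum only and green in the cerebrum only, and open points are not in DRACH. The Mpped2 row has 16 cerebrum and 2 cerebellum sites and no shared one, while the Mir673 row has 26 shared sites.

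A second set of gene models on the same build put many of these sites inside longer genes. Only sites outside or antisense to M21 genes were placed this way, so the placement cannot show M21 gene sites that RefSeq leaves out. Used in place of M21, RefSeq left more sites outside genes, 7961 against 4971. It also left more antisense sites, 2112 against 1453. RefSeq was thus not the more inclusive set over all listed sites. In RefSeq, 1327 of the 4971 sites outside M21 genes (26.7%, 25.5 to 27.9) were in an exon, 1199 (24.1%) in an intron, 180 (3.62%) antisense to a gene and 2265 (45.6%) still outside. Their DRACH shares differed with that placement, at 57.6% in RefSeq exons, 14.9% in RefSeq introns, 49.4% antisense and 25.9% outside. Within 10 kb of an M21 end 1003 of 2220 sites were in RefSeq exons, and 892 of these, 88.9%, were in an exon of the gene whose end lay upstream. In the first kb this held for 425 of 458 exonic sites. Another 1002 sites within 10 kb were outside RefSeq genes too and were DRACH in 39.1% (36.1 to 42.2) of cases. Beyond 10 kb 45.9% were outside RefSeq genes, 39.1% in RefSeq introns and 11.8% in exons. Of the antisense sites 265 were in RefSeq exons, with a DRACH share of 60.8%, and 942 were antisense in RefSeq as well, with 28.2%.

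**Figure D4:**
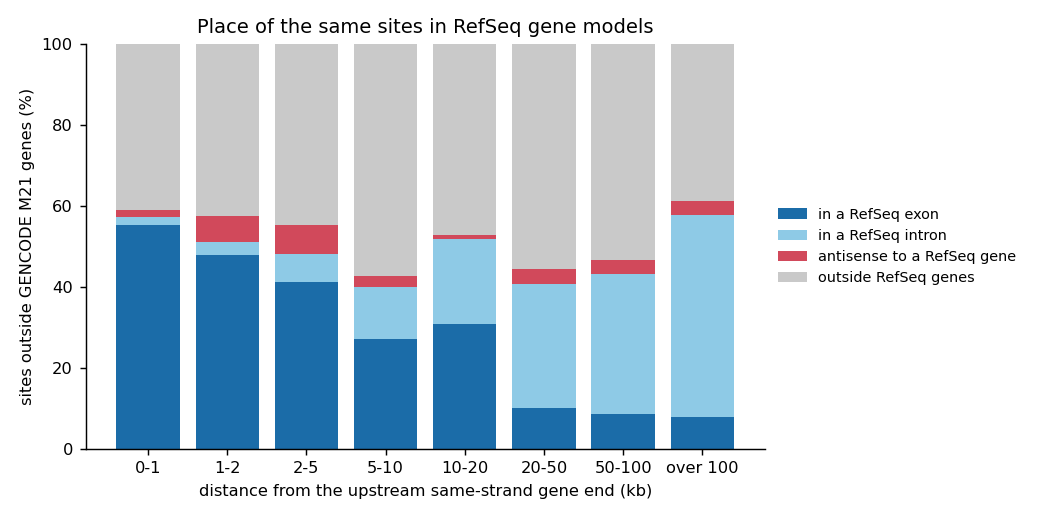
Place in RefSeq gene models of the sites outside all GENCODE M21 genes, as a percentage of the sites in each bin of distance in kb from the upstream M21 gene end. The exon share is 55.2% in the first kb and 7.93% beyond 100 kb, where 49.8% of sites are in RefSeq introns.

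Far from gene ends the sites were sparse, and large groups were few. Joining sites on 1 strand with neighbours at most 1 kb apart gave 1726 clusters beyond 10 kb, 1197 of them single sites and 54 of 5 or more. In the large clusters 45.1% of sites were DRACH, against 12.2% of single sites. At all distances outside genes the clusters numbered 2848, 134 of them large, and these shares were 62.8% and 21.8%. The largest cluster more than 10 kb from a gene end held 52 sites over 3331 nt, 39 of them DRACH and 23 in both tissues. It began 14371 nt past the M21 end of Rnf130, a RING-type ubiquitin ligase gene, and all of it lay in a RefSeq exon of Rnf130. The next clusters were much smaller. One of 12 sites was in RefSeq Robo2, 9 of them exonic, one of 10 in RefSeq exons of 2310047K21Rik, one of 10 at 408 nt from Nkain2 on the opposite strand, and one of 10 in RefSeq Gm42339. Clusters of 9 sites followed, among them one past the RefSeq end of Xkr6, one in an Xkr6 exon and a pair in introns of Robo2. In one of the Robo2 intron clusters all 9 sites were DRACH and in the cerebrum list alone. In the other, which tied in size but ranked below the 8 clusters of the naming rule, 0 were DRACH, with 8 in the cerebrum and 1 in the cerebellum.

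The intervals of Robo1 and Robo2, the Slit receptors of axon guidance, were shorter in M21 than in RefSeq at the 5′ end. These genes were singled out after their counts were seen. In the part of RefSeq Robo2 that M21 does not cover, 562 sites were listed, 552 of them intronic, with 504 in the cerebrum, 70 in the cerebellum and 12 in both. Robo1 had 149 such sites, 108 in the cerebrum and 44 in the cerebellum, with 3 in both. Their DRACH shares were 14.9% and 9.40%, beside 12.3% for annotated introns. The 2 genes together held 687 of the 2751 sites beyond 10 kb, 24.97%, and without them the DRACH share beyond 10 kb was 20.8% in place of 18.97%. Dpp10 had 41 intronic sites of this kind, all in the cerebrum, although its M21 interval held 41 cerebellum and 85 cerebrum sites. Ppargc1a, the gene of the coactivator PGC-1 alpha, had 47 intronic sites, 24 in each tissue and 1 shared. Over annotated introns 11.3% of cerebellum sites were also in the cerebrum list, so a small overlap was not particular to these genes.

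Within 1 kb, gene starts held fewer sites than the 830 past gene ends. Within 1 kb upstream of a gene start on the opposite strand, where divergent transcripts begin, 145 sites outside genes were listed, 2.92% (2.48 to 3.42) in 1.27% of the sequence, and 55.2% of them were DRACH. Within 1 kb upstream of a same-strand gene start there were 217 sites, 102 of which were also within 10 kb past an upstream gene end.

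Antisense sites were mostly opposite introns, 1047 of 1453, with 406 opposite exons. Those opposite exons had a DRACH share of 45.8% (41.0 to 50.7) and those opposite introns 31.6% (28.9 to 34.5). The opposite gene was protein-coding for 1103 sites. Within 10 kb of the opposite gene end and 10 kb past an own-strand end, as at convergent genes, were 461 antisense sites, 31.7%. Their DRACH share was 53.6% (49.0 to 58.1). These are counts of sites and not of gene pairs. The share of sequence that meets both conditions was not set beside them, and an opposite gene shorter than 10 kb meets the first throughout. A listed site lay on the opposite strand within 100 nt for 4.20% of the antisense sites and 0.0604% of the sites outside genes. The rule builds in much of this contrast, since antisense sites lie opposite a gene and the others do not. In all 733 opposite genes were involved, 490 of them with 1 site.

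The 8 opposite genes with the most sites showed different arrangements. D030068K23Rik, a lincRNA gene, had 56 sites opposite it, 36 in the cerebellum, 41 in the cerebrum and 21 in both, and 28 were DRACH. All of them lay at least 89383 nt past any same-strand gene end, and 41 were in the RefSeq gene 4922502B01Rik, 18 of them exonic. Opposite Ube3a, a ubiquitin ligase gene that is imprinted in neurons, 42 sites were listed, with 19 in the cerebellum, 26 in the cerebrum and 3 in both. In RefSeq 32 of them fell in Snhg14, the host transcript of the Ube3a antisense, 27 in its introns, and 8 of 42 were DRACH.

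Most of the others lay past the end of a neighbour on their own strand. The 28 sites opposite Fbxo7, which encodes an F-box protein, continued those of Syn3 at 3359 to 6213 nt past its M21 end and were all in a RefSeq Syn3 exon, 25 of them DRACH. The 20 sites opposite Gm27008 lay 90 to 1332 nt past the end of Kcna3, a voltage-gated potassium channel gene, 17 of them DRACH and 14 in both tissues, and none was in a RefSeq gene on their strand. Past the end of Ssbp2 17 of the 18 sites opposite 4833422C13Rik were within 10 kb, and past Gspt1, a translation termination factor gene, all 17 opposite 2610020C07Rik were. The 16 sites opposite Ccdc73 lay past the end of Eif3m, a translation initiation factor subunit gene, 6 of them DRACH and none in both tissues. Of these 16, 5 were in the cerebellum. Over all antisense sites 62.7% of cerebellum sites were also in the cerebrum list, and the difference was not tested. The 16 opposite Gm45321 were at least 16267 nt past any gene end on their strand, and 1 was DRACH.

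The tissues shared sites more often here than in introns. Of the cerebellum sites outside genes 46.5% (44.1 to 48.9) were also in the cerebrum list, and of the cerebrum sites 19.2% were in the cerebellum list. For antisense sites these shares were 62.7% (58.5 to 66.7) and 26.6%. For sites in 3′ untranslated regions they were 71.8% and 36.8%, and for intronic sites 11.3% and 3.30%. For sites without the motif the difference from introns was wide. Of the non-DRACH cerebellum sites 36.3% (33.5 to 39.3) outside genes and 59.5% (54.2 to 64.6) of the antisense ones were also in the cerebrum, against 6.37% in introns and 38.3% in 3′ untranslated regions. Split by distance, the antisense non-DRACH sites beyond 10 kb from a gene end reached 68.9% (62.8 to 74.4) of 238 cerebellum sites, against 37.0% (28.2 to 46.8) within 10 kb. Of the cerebrum sites these were 30.3% and 14.3%. Exact copies of the surrounding sequence were counted as well. The 51 nt around a site, read with A as G as the assay reads unmethylated RNA, occurred a second time in the genome for 1.22% of the 164 antisense non-DRACH sites beyond 10 kb found in both tissues (0.335 to 4.34). The value was 2.72% (1.39 to 5.28) for the corresponding 294 sites outside genes. For non-DRACH sites found in both tissues it was 0.999% (0.485 to 2.05) in introns and 5.33% in 3′ untranslated regions. The part of imperfect copies was not tested.

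**Figure D5:**
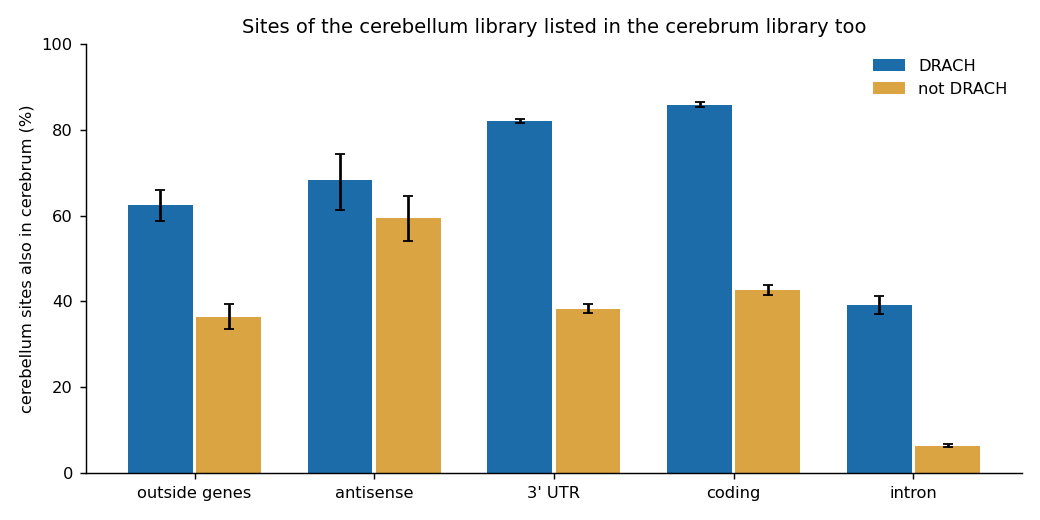
Percentage of cerebellum sites that are also in the cerebrum list, with 95% Wilson intervals, for sites in a DRACH motif (blue) and others (yellow). Non-DRACH sites range from 6.37% in introns to 59.5% for antisense sites, while DRACH sites range from 39.1% in introns to 85.9% in coding sequence.

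Sites in transfer RNA genes formed a distinct set, found after the values were seen. RefSeq places 386 of these genes on chromosomes 1 to 19. Any that lie inside a same-strand M21 gene could hold no site here, and how many do was not counted. Of the sites 93 lay in 77 of the 386 genes on the same strand. None of the 93 was DRACH. In the cerebellum 52 were listed, in the cerebrum 89 and in both 48, so 92.3% (81.8 to 97.0) of the cerebellum ones were shared. They made up 8.35% of the 575 non-DRACH sites found in both tissues. Of the 93, 71 were at the adenosine 16 nt from the 3′ end of the gene, the T-loop position that in mature tRNA commonly carries N1-methyladenosine. Another 15 were at the adenosine right after the anticodon, which in mature tRNA often carries a bulky N6-linked group. The remaining 7 were elsewhere. tRNA genes have near-identical copies, so which gene of a family a read came from is uncertain. Examples listed in both tissues are shown with the adenosine in capitals, 3 from the T loop and 2 from the anticodon loop.
n-TNgtt9 T loop, chr2:18587045-18587073, minus strand: aggttggtggttcgAgcccacccagggac
n-TSgct7 T loop, chr2:119046751-119046779, minus strand: cacgcatgggttcgAatcccatcctcgtc
n-TQctg5 T loop, chr3:96341157-96341185, minus strand: gcgatccgagttcaAatctcggtgggacc
n-TNgtt9 anticodon loop, chr2:18587066-18587094, minus strand: cgcgttcggctgttAaccgaaaggttggt
n-TScga2 anticodon loop, chr10:128458495-128458523, minus strand: ggcgttggactcgaAatccaatggggttt

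Repeats and base composition differed between motif and other sites as well. Repeat-masked sequence held 19.9% of the sites outside genes (18.8 to 21.1) and 38.8% of the sequence they could fall in. For DRACH sites the share was 12.04% and for the others 23.7%. Antisense sites were in repeats in 16.6% of cases, in 28.0% repeat sequence. The GC content within 50 nt was 42.0 ± 8.69% (SD, n = 1619) for DRACH sites outside genes, 38.6 ± 9.498% (SD, n = 3352) for the others and 36.7 ± 8.47% (SD, n = 55679) for intronic sites. Another site without the motif lay within 10 nt for 17.1% of non-DRACH sites outside genes, and another DRACH site lay that near for 6.86% of DRACH sites. The reference base on the site strand was not A at 24 sites outside genes and 8 antisense sites, all counted as non-DRACH.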

How the data were processed

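GLORI libraries of poly(A)+ RNA were analysed from female F1r cerebellum and cerebrum at P0, 1 library each. The authors mapped reads to mm10 and to a copy carrying PWK bases, ran GLORI-tools on each, merged the site sets of a library and kept those above a minimum methylation rate and read count. For the high-confidence sites of the study they also required overlap with m6A-seq peaks of the same tissue. That overlap was not applied here. The deposited files list 1-nt positions with strand and hold no rate, count or score, so no test between tissues and no depth could be had.

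Positions were compared with gene intervals of GENCODE M21, which is not the release the study names, and with RefSeq gene models, both on GRCm38. Distances run along the site strand from the nearest gene end upstream, to 10 kb or in bins. The naming rule took the 15 gene ends, the 8 opposite genes and the 8 distant clusters with the most sites. Members, lists and alternatives were chosen with earlier results of these data known. Copies of 51-nt windows were counted by exact match on chromosomes 1 to 19, X, Y and MT. Scripts used Python 3.11.15, numpy 2.4.6, pandas 2.3.3 and matplotlib 3.10.9 and were tested on simulated data.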

Additional observations from a re-analysis of the deposited data

Results flagged for a closer look

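Chromosomes X, Y and MT were outside the comparisons but carried sites that fell in no gene on their strand. Chromosome X had 203 sites outside all genes, 77 in the cerebellum and 163 in the cerebrum, and 19 antisense sites, with 9 and 17, of 6522 listed there. Chromosome Y had 4 sites outside genes, of 33 listed in libraries labelled female. The mitochondrial genome had 9 antisense sites of 56 listed. The lists have no control sample, so each count exceeded only the 3 counts that a count of 0 allows.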

How the results depend on the processing

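The 8 main values were recomputed under 58 alternative settings in all, of which 31 stayed within the interval of the value (or within 1.5 times for a count) and 27 did not. Lengthening genes by 1 kb gave a DRACH share outside genes of 26.9% and shares within 10 kb of 33.9% (outside) and 41.8% (antisense). Lengthening by 10 kb left 2473 sites outside genes, DRACH shares of 17.8% and 23.8% and shares in both tissues of 13.5% and 28.5%, and allows no value within 10 kb. With protein-coding and lncRNA genes alone the shares within 10 kb were 34.9% and 36.1%, and with ends of protein-coding genes alone 35.4% and 38.5%. Without repeats the DRACH shares were 35.8% and 38.1% and the share outside genes within 10 kb 46.8%. Counting each cluster once gave 2848 and 888 clusters, DRACH in 29.1% and 31.0%, within 10 kb 39.4% and 37.2%, and in both tissues 22.6% and 28.0%. RefSeq genes, chosen after seeing the data, gave 7961 sites outside genes, 31.1% of them DRACH and 59.5% within 10 kb, and 18.7% of antisense sites in both tissues. No paired analysis was possible because each tissue had 1 library. The lists hold no depth, so a site found in 1 tissue may have been too thinly covered in the other.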

Other observations

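The imprinted Dlk1-Dio3 region, where Meg3, Rian and Mirg are long noncoding RNAs of the maternal chromosome, was looked at as a whole after the Mir673 sites were seen. The 32.2 kb between the end of Meg3 and the start of Rian held 61 sites on their strand. Of these, 60 were in no M21 gene on that strand. In the cerebellum 45 of the 61 were listed, in the cerebrum 44 and in both 28, and 73.8% were DRACH. Meg3 itself had 64 sites over 30.7 kb, 64.1% of them DRACH. The 68.0 kb between Rian and Mirg held 51 sites, 33 of them in no M21 gene on that strand. Of the 51, 19.6% were DRACH, close to the 21.9% of Rian itself.

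Opposite Copg2, 12 antisense sites were listed, 4 in the cerebellum and 8 in the cerebrum with none in both, and 0 were DRACH. Over all antisense non-DRACH sites 59.5% of cerebellum sites were also in the cerebrum list. With 4 cerebellum sites here the difference was not tested. The sites opposite Copg2 lay 228 to 59322 nt past the end of the imprinted gene Mest, 5 of them within 10 kb. Past the end of Slitrk5, a neuronal transmembrane protein gene, 12 sites lay within 10 kb and 0 were DRACH, while inside the gene 61 of 85 were. Both loci are outside the naming rule and are not the only ones of this kind. The 13 sites opposite Immp1l and the 10 past the end of Blcap also held 0 DRACH sites.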
